A study of Mus musculus with 24 samples.

Results

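The genes described here encode the nuclear subunits of the oxidative phosphorylation complexes and the Ndufaf factors that build complex I. They were chosen by symbol alone: every gene of the count table whose symbol starts with Nduf, Uqcr or Atp5, or is Cox4 to Cox8 followed by letters or digits. The rule found 86 genes of 32962, after 4 pseudogenes were left out: 37 of complex I, 8 complex I assembly factors, 8 of complex III, 16 of complex IV and 17 of complex V. The complex was read from the symbol too. Ndufa4 and Ndufa4l2, now counted with complex IV, thus stand in complex I here. Atp5sl, also known as the assembly factor Dmac2, stands in complex V. The nuclei came from lumbar spinal cords, freed of dorsal root ganglia, of 24 ICR/CD-1 mice of both sexes aged 8 to 11 weeks. The tissue label says brain, whereas the protocol describes the cord. The design text names 9 mice as controls without saying what they underwent, 10 formalin mice had 30 µl of a 2% solution (named paraformaldehyde in the protocol) injected under both hindpaws, and 5 rotarod mice walked on a rod that accelerated from 0 to 40 rotations per minute in 5 minutes. All are wild-type animals as far as the labels go, and how long after the stimulus the tissue was taken is not stated.

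Oxidative phosphorylation takes place at the inner mitochondrial membrane. Complexes I, III and IV pass electrons from NADH to oxygen and pump protons, and complex V, the ATP synthase, uses the returning protons to make ATP. Most subunits are encoded in the nucleus and imported, while a core set is encoded by mitochondrial DNA, so the proteins of both genomes have to be assembled together. Several complex IV subunits exist as tissue-specific isoforms, and Ndufa4l2 and Cox4i2 are known from hypoxic cells and from pericytes, the mural cells of capillaries. Neurons depend on this pathway to pay for ion pumping and synaptic transmission. Because nuclei were profiled, the counts describe nuclear and attached RNA and not the cytoplasmic pool that is translated.

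The promoters of these genes are known for binding sites of NRF1, ETS-family factors such as GABP, and YY1, and 73 of the 86 genes had an entry in the RefSeq promoter table of build GRCm38.p6, which covers 250 bases before to 50 after each start. The NRF1 palindrome, GCGCA followed by its own reverse complement, occurred in 7 of these 73 promoters (9.59%), against 0.977% of all 27025 promoters of the same length. The ETS letters CCGGAAG occurred in 15 (20.5%, against 9.12% of all) and the YY1 letters AAGATGGC in 11 (15.1%, against 2.88%). Both strands were searched, and the matches marked in the stretches below do not overlap each other. TATAAA was found in 9.59% of the members' promoters and 14.2% of all promoters. GGGCGG, the core of SP1 sites, was found in 43.8% and 35.9%, and the estrogen-related receptor letters TCAAGGTCA in 1.37% and 0.407%. A match is a description of the sequence and was not tied to any measurement here. The stretches from 200 bases before the start to the base before it are shown for a member that stood out between classes in the filtered test below, for the complex III member with the smallest p in the endothelial comparison run on all genes, and for the assembly factor that ran the other way. Capitals mark the matches: the NRF1 palindrome and, on the reverse strand, the ETS letters in Cox6a1 (chr5:115348959-115349158, minus strand), and the ETS letters in Uqcr11 (chr10:80406822-80407021, minus strand). The stretch of Ndufaf2 (chr13:108158626-108158825, minus strand) holds none of the NRF1, ETS, YY1, estrogen-related receptor or TATA letters. SP1 letters are not marked.
Cox6a1: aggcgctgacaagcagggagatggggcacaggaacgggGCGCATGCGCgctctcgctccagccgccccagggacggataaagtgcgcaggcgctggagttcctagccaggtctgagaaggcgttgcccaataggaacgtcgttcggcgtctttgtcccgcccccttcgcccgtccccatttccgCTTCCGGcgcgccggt
Uqcr11: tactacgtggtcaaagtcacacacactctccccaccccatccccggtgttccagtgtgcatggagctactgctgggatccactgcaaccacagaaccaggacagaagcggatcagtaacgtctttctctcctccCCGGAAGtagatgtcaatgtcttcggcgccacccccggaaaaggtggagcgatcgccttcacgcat
Ndufaf2: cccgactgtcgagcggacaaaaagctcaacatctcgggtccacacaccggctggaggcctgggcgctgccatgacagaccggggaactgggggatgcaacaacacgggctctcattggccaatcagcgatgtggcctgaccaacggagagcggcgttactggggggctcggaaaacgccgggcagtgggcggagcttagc

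The table held 18000 barcodes, 750 per mouse, and between 549903 and 3243587 UMIs (counted molecules) per mouse. The deposited annotation placed 13425 nuclei in a class, marked 3818 as discarded and left 757 unlabelled. The 86 genes gave 72652 UMIs, 0.208% of all, so most single genes were thinly counted. Levels are given as CPM, the UMIs of a gene or list per 1000000 UMIs of the same nuclei and mouse, with the SD between mice. Neuronal nuclei held a median of 2476.5 UMIs in control, 1633 in formalin and 2335 in rotarod mice. Classes followed their markers: neuronal markers summed to 43661 ± 3622 CPM in neurons of the 9 control mice and to 6738 ± 3364 in the endothelial or vascular class, and endothelial markers to 103.6 ± 49.0 against 18900 ± 2877. Markers of other classes were present in every class, oligodendrocyte markers at 1754 ± 956 in control neurons, for example. Barcode sequences found in more than 1 library numbered 19. In a bulk sum over a class, fewer molecules per nucleus and fewer expressing nuclei cannot be told apart.

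In neurons of control mice the 86 genes together reached 1876 ± 227 CPM (n = 9; lowest 1524, median 1862, highest 2192). Complex I contributed 744 ± 120, its assembly factors 263 ± 24.0, complex III 150 ± 23.8, complex IV 239 ± 36.4 and complex V 480 ± 77.3. For comparison, the 10 mitochondrially encoded subunit genes of the table reached 1783 in the same neurons and 84 ribosomal protein genes 488. The most counted complex I subunits were Ndufs4, an accessory subunit needed for a stable electron input module, with 1303 UMIs, and Ndufs1, the large iron-sulfur subunit, with 902. Among assembly factors these were Ndufaf2, a late chaperone of complex I, with 752 UMIs and Ndufaf7, a mitochondrial methyltransferase, with 708. In complex III they were the core protein gene Uqcrc2 with 594 and the hinge protein gene Uqcrh with 273. In complex IV, Cox7b had 376 and Cox5a 374 UMIs, and in complex V the catalytic pair Atp5a1 and Atp5b, the α and β subunits of the F1 head, had 873 and 668. UMI counts of different genes are not comparable as expression here, since counts rose with gene span: over the 85 members with an annotated span (median 7.28 kb, from 0.953 to 155.9 kb), Spearman's rho between span and mean level in control neurons was 0.586. Of these, 36 members overlap another annotated gene, Ndufaf2 among them, which overlaps the lincRNA B230220B15Rik and the gene Smim15 on the opposite strand. The strand of the counts is not stated, so reads of such partners cannot be told apart.

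Between the groups, the summed level in neurons was lowest in rotarod mice and highest in formalin mice. The 5 rotarod mice had 1543, 1460, 1446, 1697 and 1592 CPM over the 86 genes (1547 ± 103). The 10 formalin mice had a lowest value of 1667, a median of 2056 and a highest of 2510 (2044 ± 272). The groups touched at their edges only: 1 rotarod mouse lay above the lowest formalin mouse, and control mice spanned from within the rotarod range to within the formalin range. The ratio of group means was 1.09 for formalin over control, 0.825 for rotarod over control and 1.32 for formalin over rotarod. Complex V stood at 344, 336, 327, 405 and 385 in rotarod mice against 374 to 640 in formalin mice and 360 to 601 in control mice, with a formalin to rotarod ratio of 1.45 and an overlap of a few mice. The same ratio was 1.28 for complex I, with rotarod mice at 573 to 702 and formalin mice at 692 to 968, 1.13 for the assembly factors, 1.31 for complex III and 1.43 for complex IV. These sums carry no test, because they were formed over genes chosen with earlier results of these data known. Beside them, ribosomal protein genes gave a formalin to rotarod ratio of 1.28, glycolytic genes 1.46, citric acid cycle genes 1.24 and complex II 1.31, whereas mitochondrially encoded subunits gave 0.681. Neuronal markers summed to 44469 in formalin and 39702 in rotarod neurons, and blood markers to 399 ± 664 and 125 ± 82.9. Of the markers of other cell types tested in neurons, none was called in formalin against rotarod mice. Their median log2 fold changes there were 0.41 for oligodendrocytes (6 of 9 above 0), 1.07 for Schwann cells (2 of 3), 0.59 for endothelium (4 of 4) and 0.20 for astrocytes (4 of 4). Of the other lists, motoneuron (-0.86) and ependymal markers (-0.01), 1 tested each, lay below 0, and the rest had medians above 0. In rotarod against control mice none was called either. Medians there were -0.64 for oligodendrocytes (8 of 9 below 0), -1.11 for Schwann cells (2 of 3), -0.74 for endothelium (4 of 4) and -0.46 for astrocytes (4 of 4). These had the same sign as the members' median given below, as did meningeal (-0.80), oligodendrocyte precursor (-0.14) and microglial markers (-0.05, 1 of 2). The opposite sign was seen for blood (0.76, 3 of 3 above 0), pericytes (0.14, 2 of 3), motoneurons (1.19, 1 tested) and ependyma (0.04, 1 tested). Sums were also formed from nuclei thinned to an equal number of UMIs, and some of their ratios to control are given in the section on processing. Among these, the rotarod deficit was smaller after thinning for complex I, complex V and all members, and larger for complex III. The formalin excess for complex I was larger. These shifts carry no test either, and the part of these other RNAs in the sums was not tested.

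**Figure D1:**
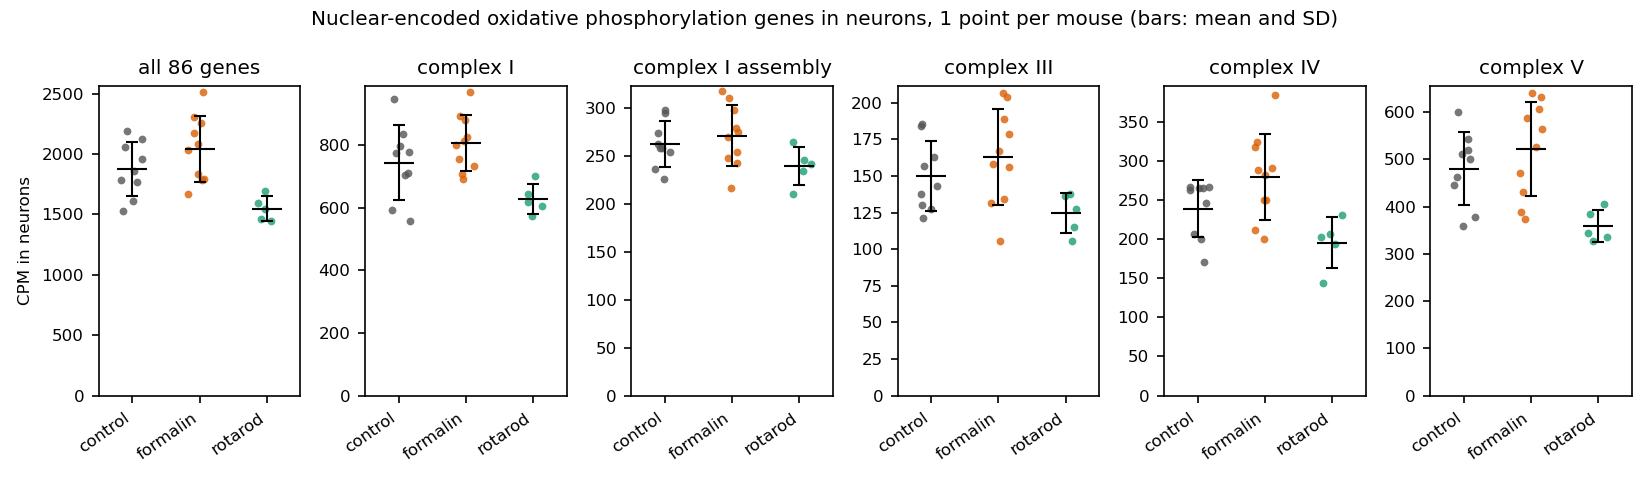
CPM in neurons for all 86 genes and for each complex, 1 point per mouse, in 9 control, 10 formalin and 5 rotarod mice; bars give the mean and SD and each axis starts at 0. For complex V the 5 rotarod mice lie between 327 and 405 and overlap only the lower formalin and control mice.

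Of the 86 genes, 60 passed the expression filter in neurons and were tested with edgeR's quasi-likelihood test among 9103 genes. Formalin against rotarod was the neuron comparison in which members passed the threshold: 2 of 60 were called, both higher in formalin mice, where 0.824% of all tested genes were called higher and 1.33% lower (2.15% in either direction). Of the 60, 51 had a higher and 9 a lower estimate, with a median log2 fold change of 0.30, while 52.2% of all tested genes lay above 0. At an unadjusted p under 0.05 there were 14 members, against 17.8% of all tested genes. With formalin samples 1 to 5 summed with samples 6 to 10 (correlations within these pairs of 0.0904 to 0.279), the count was 0 of 66 tested. With nuclei thinned to 500 UMIs it was 0 of 10 tested. DESeq2 also called 2 members, Atp5a1 and Cox6a1, with 26 members left without an adjusted p by its own filter, and 258 genes in all.

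Ndufb10, a small accessory subunit in the membrane arm of complex I, had 10.3, 4.02, 6.23, 7.97 and 4.11 CPM in the 5 rotarod mice (36 UMIs in all). Its level in the 10 formalin mice ran from 9.87 through a median of 17.7 to 29.1 (102 UMIs), and in the 9 control mice from 9.10 through 14.3 to 18.3. Formalin and rotarod mice overlapped by 1 rotarod mouse. The log2 fold change of formalin over rotarod was 1.35 (SE 0.31, adjusted p = 0.0189). Without rotarod mouse 2 the adjusted p was 0.0509, and without rotarod mouse 5 it was 0.0716, both above 0.05, so the call rests on each of these mice. With formalin samples 1 to 5 summed with samples 6 to 10, it was 0.0690.

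Atp5a1, the α subunit of ATP synthase, had 66.8, 56.2, 62.3, 67.8 and 70.5 CPM in rotarod mice and 74.0 to 138 (median 101) in formalin mice. The groups did not overlap, and the control mice covered both, from 52.0 to 121. The log2 fold change was 0.57 (SE 0.16, adjusted p = 0.0480), close enough to the threshold that leaving out any of formalin mice 2, 3, 4, 7, 8 and 9 or any rotarod mouse moved it to between 0.0566 and 0.137. With formalin samples summed in pairs it was 0.141. Cox6a1, the ubiquitous isoform of a complex IV subunit, just missed the threshold: its levels were 28.3, 18.7, 9.35, 17.5 and 19.4 in rotarod mice and 18.9 to 60.7 in formalin mice, with a log2 fold change of 0.85 (SE 0.25, adjusted p = 0.0588). DESeq2 placed Cox6a1 past the threshold (adjusted p = 0.0406). At the ends of the range lay Ndufb10 and, lowest, the assembly factor Ndufaf5, a hydroxylase acting on Ndufs7, at -0.54 (adjusted p = 0.196), with 35.8 to 68.6 in rotarod and 20.7 to 45.3 in formalin mice. By complex, the median log2 fold change was 0.18 for complex I (24 of 26 tested above 0), 0.27 for the assembly factors (3 of 5), 0.45 for complex III (4 of 6), 0.36 for complex IV (7 of 9) and 0.41 for complex V (13 of 14).

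No member was called in rotarod against control mice by edgeR or DESeq2, and edgeR called 0% of all tested genes. At an unadjusted p under 0.05 edgeR counted 10 of 60 members and 8.59% of all genes. Estimates were below 0 for 47 members and above 0 for 13, with a median of -0.24, where 49.8% of all tested genes lay below 0. For complex V, 13 of 14 tested genes were below 0, with a median of -0.33. The 3 members with the smallest p were Ndufb10 at -1.12 (SE 0.31, adjusted p = 0.150), Ndufs7, the iron-sulfur subunit that hands electrons to ubiquinone, at -1.10 (adjusted p = 0.395), and Atp5g3, a copy of the c-ring subunit, at -0.81 (adjusted p = 0.395). Ndufs7 had 5.14, 5.36, 3.12, 7.18 and 2.94 CPM in rotarod mice, with 30 UMIs in all, against 6.24 to 22.8 in control mice, and these ranges overlapped. The highest estimate belonged to Cox7a2l, which links complexes III and IV in supercomplexes, at 0.28.

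Formalin against control mice gave 0 called members with edgeR, where 0% of all tested genes were called, and 0 with DESeq2, which called 2 genes in all. At an unadjusted p under 0.05 there were 2 members, Ndufab1, the mitochondrial acyl carrier protein, at 0.46 and Atp5sl, also known as the assembly factor Dmac2, at 0.50 (adjusted p = 0.584 for both), against 8.41% of all genes. Estimates were above 0 for 40 members and below 0 for 20, with a median of 0.08, where 49.9% of all tested genes lay above 0. They ran from Ndufa3, an accessory subunit of the membrane arm, at -0.71 to Ndufb4, another accessory subunit, and Uqcrb, the ubiquinone-binding subunit of complex III, both at 0.70. Without the filter on low counts 41 of 86 lay above 0, with a median of -0.02. Ndufs4, the most counted member, stood at 134 ± 40.9 in control, 138 ± 20.9 in formalin and 114 ± 27.5 in rotarod neurons. Its log2 fold changes against control were 0.02 in formalin and -0.11 in rotarod mice. The formalin and rotarod comparisons share the same control mice, and the direct comparison shares its mice with both, so the 3 sets of values are not independent.

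The estimates moved with gene span over all genes in the 3 neuron comparisons, and over members in the 2 that involve rotarod mice. The correlation of log2 fold change with log10 span over 9002 genes was -0.45 for formalin against rotarod, 0.35 for rotarod against control and -0.23 for formalin against control, and over the 59 tested members with a span it was -0.44, 0.39 and -0.11. Most members are short: 47 of the 59 fell in the shortest of 4 equal bins of tested genes, with spans up to 19.4 kb. In that bin the median over all genes was 0.25 for formalin against rotarod and the members' median 0.40. For rotarod against control the corresponding values were -0.18 and -0.30. With the trend on span removed from all genes, the members' median became 0.11, with 33 above and 26 below 0, for formalin against rotarod, and -0.11, with 23 above and 36 below, for rotarod against control. The long members Ndufs4 (100.5 kb) and Ndufaf2 (155.9 kb) had log2 fold changes of 0.13 and -0.21 in formalin against rotarod mice.

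**Figure D2:**
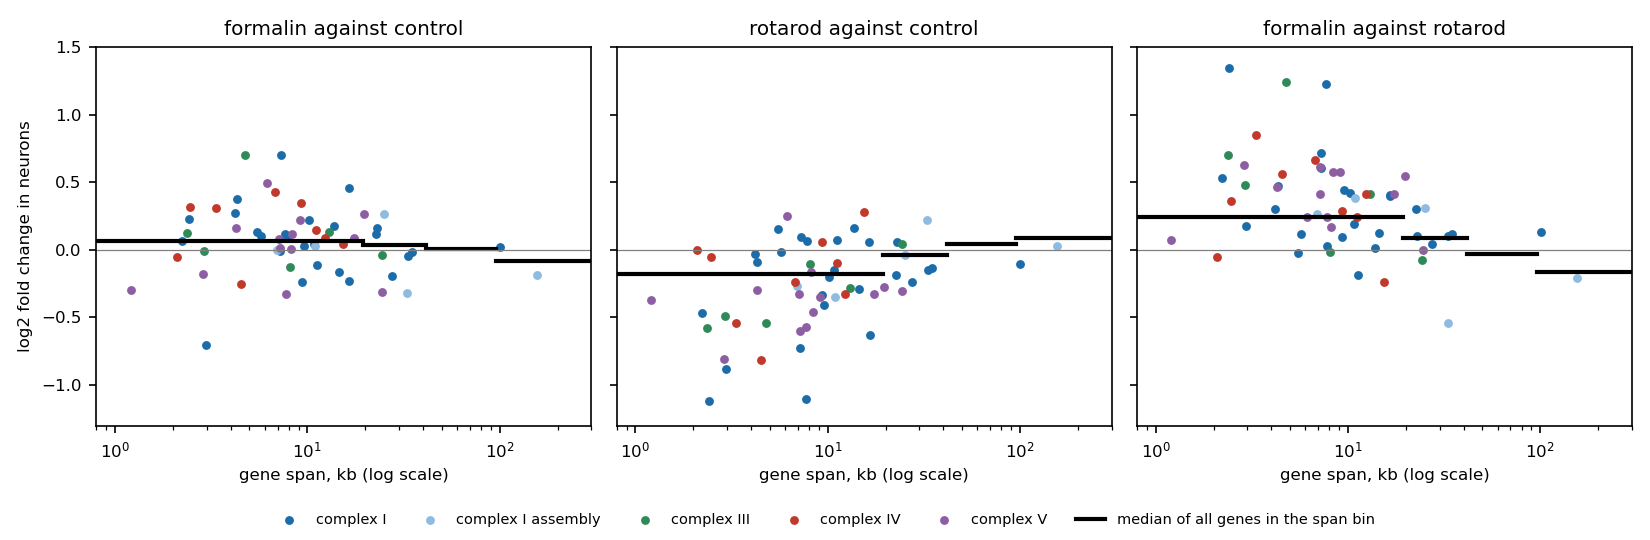
log2 fold change in neurons of the 59 tested members with an annotated span, by gene span in kb on a log axis, for the 3 comparisons; colours give the complex and black lines the median of all tested genes in each of 4 bins of span. Most members sit in the shortest bin, where the median of all genes was 0.25 for formalin against rotarod and -0.18 for rotarod against control.

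Other genes of energy metabolism were read from lists beside the members. In formalin against rotarod neurons edgeR called Idh3g, a subunit of isocitrate dehydrogenase (log2 fold change 0.99, adjusted p = 0.0216), 1 of 12 tested citric acid cycle genes. It called Eno2, the neuronal enolase (0.62, adjusted p = 0.0220), and Pkm, pyruvate kinase (0.87, adjusted p = 0.0222), 2 of 12 tested glycolytic genes. All 3 rose in formalin relative to rotarod mice. None of 16 tested ribosomal protein genes, 3 complex II genes, 18 other assembly factors or 13 biogenesis regulators was called. The 7 tested mitochondrially encoded subunits had estimates below 0, with a median of -0.65 and a smallest adjusted p of 0.345, opposite in sign to the nuclear-encoded members' median of 0.30.

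Outside neurons the counts allowed few tests between groups. 4 members passed the filter in oligodendrocytes, in astrocytes and in the meningeal or Schwann class, and 0 in endothelial or vascular nuclei, and edgeR called none of them in any group comparison. DESeq2 called none either, but gave no adjusted p to any of the 4 in oligodendrocytes of formalin against rotarod mice and in both rotarod comparisons of the meningeal or Schwann class. The share of all tested genes called by edgeR in formalin against rotarod mice was 0.475% in oligodendrocytes, 1.33% in astrocytes and 0.0611% in the meningeal or Schwann class. In formalin against control mice edgeR called 0% in each of these classes, and in rotarod against control mice 0.0317%, 0.388% and 0.0917%. At an unadjusted p under 0.05 stood Ndufs1 in oligodendrocytes of formalin against rotarod mice (log2 fold change 0.89, adjusted p = 0.247), with 14.3% of all genes, and Atp5a1 in astrocytes of the same groups (1.11, adjusted p = 0.285), with 12.3% of all genes. The summed level of the 86 genes had the same order of group means in each class: 1773, 1581 and 1239 in formalin, control and rotarod oligodendrocytes, 2402, 2194 and 1874 in astrocytes, 2123, 1949 and 1759 in meningeal or Schwann nuclei and 4174, 3956 and 3026 in endothelial or vascular nuclei. The ranges over mice overlapped in every class, and whether the classes differ from neurons in this was not tested.

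Between cell classes the differences were larger. In control mice the 86 genes reached 3956 ± 819 CPM in endothelial or vascular nuclei (n = 9; lowest 2709, median 4053, highest 5263), above the highest neuronal value of 2192. The level there was higher than in neurons of the same mouse in 9 of 9 mice, by 1.60 to 2.92 times. Complex III stood at 2.94 times the neuronal mean, complex IV at 2.78, complex I at 2.36 and complex V at 1.78, each higher in 9 of 9 mice, while the assembly factors stood at 0.905 times, higher in 4 of 9. Astrocytes reached 2194 ± 290 (n = 8), higher than neurons in 8 of 8 mice but by 1.16 times only, with complex IV at 1.36 and complex V at 1.34 times. Meningeal or Schwann nuclei had 1949 ± 358 (n = 9; higher than neurons in 5 of 9 mice), with assembly factors at 0.698 times. Oligodendrocytes had 1581 ± 224 (n = 8), lower than neurons in 8 of 8 mice, with assembly factors at 0.663 and complex V at 0.789 times, each lower in 8 of 8. In endothelial or vascular nuclei ribosomal protein genes were also higher, at 6.11 times the neuronal mean, and mitochondrially encoded subunits at 6.61 times. The median endothelial or vascular nucleus had 1538 UMIs against 2214 in neurons over all mice, and blood markers ran from 0 to 12820 CPM between the control mice there. The part of cytoplasmic RNA carried with the nuclei in these ratios was not tested.

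**Figure D3:**
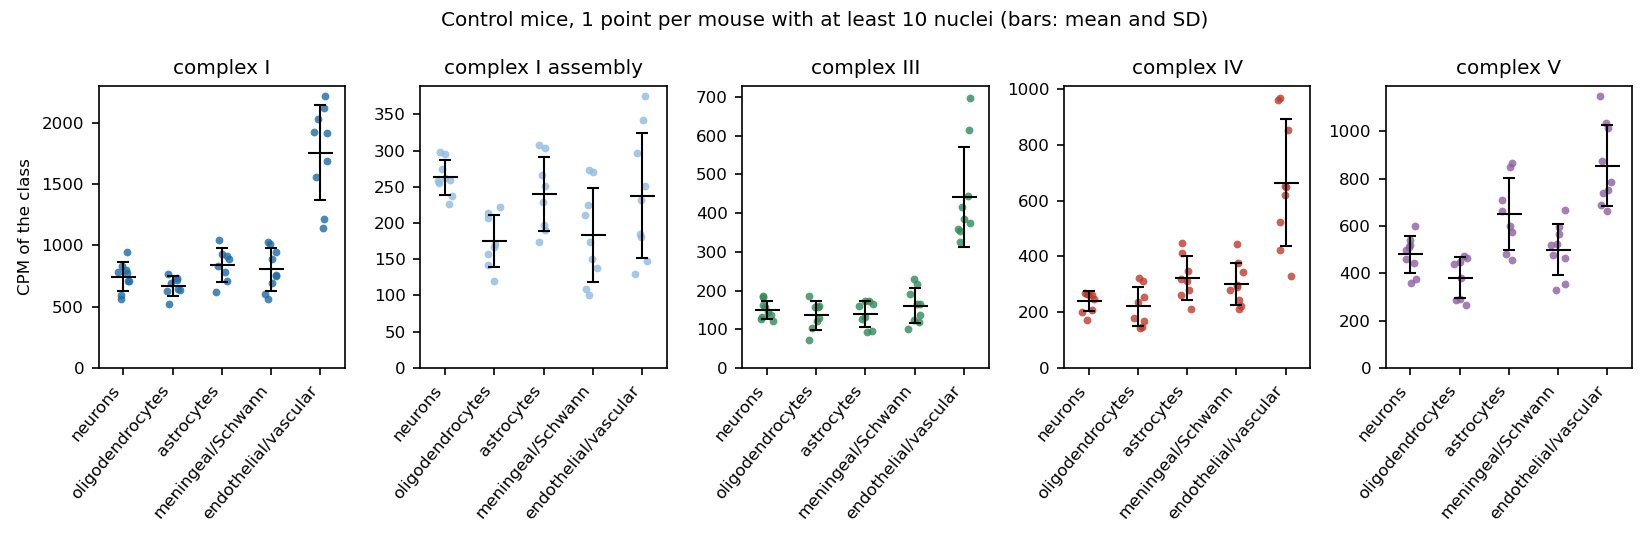
CPM of each complex by class in control mice, 1 point per mouse with at least 10 nuclei of the class (8 or 9 mice); bars give the mean and SD. Endothelial or vascular nuclei stand above the other classes for complexes I, III and IV, and not for the complex I assembly factors, where their mean is 0.905 times the neuronal one.

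In the test of classes against neurons, with the mouse as a block, 10 members passed the filter among 4295 genes. In endothelial or vascular nuclei 3 were called higher and 1 lower, where 31% of all tested genes were called higher and 37.5% lower. The filter sets its limit by the small libraries, so Cox8a and Cox6a1 passed at 24.6 and 30.3 CPM in neurons, whereas Ndufaf7 at 69.3 and Uqcrc2 at 58.4 did not. Members that passed only through a class where they are high had to differ, and these counts support nothing about the members as a whole. The p-values of Cox6a1 and Cox8a from this filtered fit carry the same limit and are given as descriptions. Cox6a1 ran from 65.8 through a median of 132 to 152 CPM in endothelial or vascular nuclei of the 9 control mice, and from 12.2 through 30.3 to 45.5 in their neurons. The 2 ranges did not overlap, and the log2 fold change was 2.06 (SE 0.27, adjusted p = 7.69e-11). Cox8a, the ubiquitous isoform of the smallest complex IV subunit, was higher by 1.63 (SE 0.32, adjusted p = 3.98e-06) at 85.6 ± 58.9 against 24.6 ± 5.45, with 1 mouse at 0 UMIs in endothelial or vascular nuclei, so its ranges overlapped. Atp5f1, the b subunit of the ATP synthase stalk, was higher by 0.94 (SE 0.27, adjusted p = 0.00153), and Ndufaf2 was lower at -0.85 (SE 0.31, adjusted p = 0.0112). The count of 4 called members became 1 without control mouse 9 (Cox6a1, of 6 members tested), 7 without control mouse 5 and 9 without control mouse 6, since the filter then kept another number of members. When the cx mice (controls 7 to 9, so titled in the labels) were left out, 6 members were tested, Cox6a1 not among them, and Cox8a was called.

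In astrocytes 3 of 10 were called, all higher, where 27% of all tested genes were called higher and 28.9% lower. These were Atp5a1 at 0.73 (SE 0.21, adjusted p = 0.00210), with 144 ± 50.5 CPM against 85.9 ± 23.1 in neurons, Cox8a at 0.90 (adjusted p = 0.0238) and Atp5b at 0.54 (adjusted p = 0.0367). Astrocytes and neurons overlapped for each of the 3. The count was 1 without control mouse 1 and 7 without control mouse 5. Without the filter on low counts all 3 calls were lost, at adjusted p = 0.291 for Atp5a1, 0.368 for Cox8a and 0.819 for Atp5b. In meningeal or Schwann nuclei 1 was called higher and 3 lower, where 33.3% and 32% of all tested genes were called: Cox8a at 0.69 (adjusted p = 0.0308), and Ndufs1 at -0.92 (adjusted p = 0.000227), Atp5a1 at -0.70 (adjusted p = 0.00267) and Ndufaf2 at -0.62 (adjusted p = 0.0130). The count of 4 was 7 without control mouse 6 and 2 without control mouse 9. In oligodendrocytes 3 were called lower and 0 higher, where 31.3% and 30% of all tested genes were called. Atp5b fell to 30.7 ± 14.1 from 69.4 ± 21.8 in neurons (-1.10, adjusted p = 0.000143), with Ndufs4 at -0.69 (adjusted p = 0.00200) and Ndufv2, an electron input subunit, at -0.57 (adjusted p = 0.0461). The count of 3 was 5 without control mouse 6. Counting both directions, the share of all tested genes called was 68.5% in endothelial or vascular nuclei, 55.9% in astrocytes, 65.3% in the meningeal or Schwann class and 61.2% in oligodendrocytes, above the 3 or 4 of 10 members in each.

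Without the filter on low counts, all 86 members were tested among 28832 genes. The endothelial or vascular comparison then called 33 higher and 10 lower, where 8.07% of all genes were called higher and 17.8% lower. With the filter, 4295 genes were tested in the same comparison, and 31% of these were called higher and 37.5% lower. Shares over all 28832 genes, here and below, include many thinly counted genes and are no like-for-like background for the members. The unfiltered fit shifts the median of all genes to -0.53, so values in it read relative to that shift, and Cox6a1 stood at 1.45 in it. The genes named in the following sentences were chosen after their values were seen. Complex I had 18 of 37 called higher and 3 lower, complex III 5 of 8 higher and 1 lower, complex IV 5 of 16 higher and 0 lower, and complex V 4 of 17 higher and 1 lower. Uqcr11, a small subunit of complex III, reached 99.6 ± 53.8 CPM in this class and 9.69 ± 3.17 CPM in neurons, with every control mouse above the neuronal range (29.6 to 191 against 5.72 to 13.7), at a log2 fold change of 2.58 (adjusted p = 1.85e-13). Uqcrq, the ubiquinone-binding subunit VII of complex III, followed at 107 ± 61.5 against 12.7 ± 6.18 (1.90, adjusted p = 9.00e-08), again with no overlap. Atp5e, the ε subunit of the F1 central stalk (2.16), and Cox6c of complex IV (1.66) were among the others called higher. The assembly factors ran the other way in this fit: 5 of 8 were called lower and 1 higher. Their summed CPM was nearer to level, at 0.905 times the neuronal mean and higher in 4 of 9 mice. Ndufaf7 stood at -1.37 (adjusted p = 7.85e-05) and Ndufaf2 at -1.45, and the exception, Ndufaf8, stood at 2.54 on 15 UMIs in endothelial or vascular nuclei. The assembly factors had 5 of 8 called lower in the meningeal or Schwann class as well, where 14.8% of all genes were called lower, and 3 of 8 in oligodendrocytes, where 13.1% were. In these comparisons the median of all genes was shifted too, to -0.34 and -0.38. Over all 86 members the meningeal or Schwann class had 3 called higher and 14 lower, where 9.03% and 14.8% of all genes were called, and oligodendrocytes 1 higher and 10 lower, where 5.91% and 13.1% were. In astrocytes 0 were called higher and 2 lower, where 5.39% and 11.6% of all genes were called.

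Span moved with these values too. The log2 ratio of endothelial or vascular to neuronal mean level had a Spearman correlation of -0.548 with gene span over the 83 members with a span and counts in both classes. The 28 shortest members together stood at 4.45 times the neuronal level, the middle 28 at 2.23 times and the 29 longest, from 9.58 to 155.9 kb, at 1.41 times. Over all genes of the filtered fit, the median log2 fold change was 0.35 in the shortest of 4 span bins and -1.11 in the longest. In oligodendrocytes the same 3 sets of members stood at 1.02, 0.842 and 0.801 times the neuronal level. Assembly factors differ in span as well: Ndufaf2 spans 155.9 kb, Ndufaf5 33.0, Ndufaf6 25.2 and Ndufaf7 10.9 kb. Ndufaf8, the exception above, spans 1.78 kb, and Ndufaf1, Ndufaf3 and Ndufaf4 span 7.38, 1.90 and 6.92 kb. The part of span in the values of the assembly factors was not tested.

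**Figure D4:**
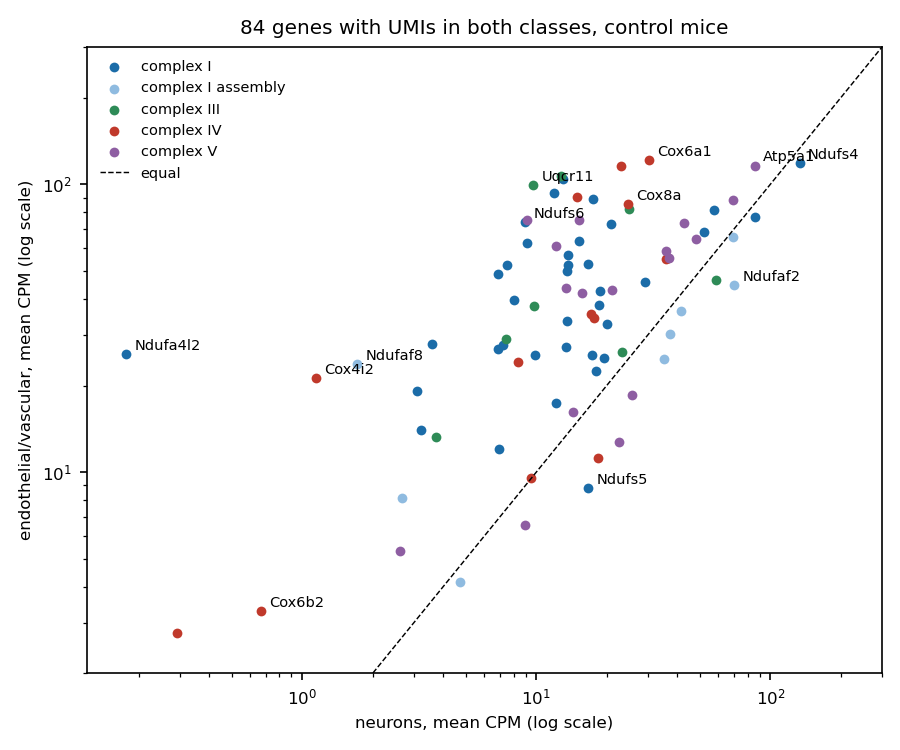
Mean CPM of each member in endothelial or vascular nuclei against neurons of control mice, on log axes, for the 84 members with UMIs in both classes; colours give the complex and the dashed line marks equal levels. Most members lie above the line, and the assembly factor Ndufaf2 and the subunit Ndufs5 are among those below it.

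Subunits with isoforms showed the sharpest differences between classes. Counts were pooled here over the mice with at least 10 nuclei of a class, since single mice held too few: 24 mice for neurons and the meningeal or Schwann class and 23 for the other classes. Ndufa4l2, an isoform of the Ndufa4 subunit that is now counted with complex IV, had 30 UMIs in endothelial or vascular nuclei, in 16 of 23 mice, or 22.8 CPM, against 4 UMIs (0.18 CPM) in neurons. None was counted in astrocytes or in meningeal or Schwann nuclei, which makes its level at least 13.1-fold and 21.5-fold higher than there, taking 3 UMIs over the class as the floor. Ndufa4l2 overlaps Shmt2 on the opposite strand. No gene named Cox4i1, the paralogue of Cox4i2, was in the count table, so it is in no complex IV sum and was not compared. Cox4i2, the isoform of the complex IV regulatory subunit, had 26 UMIs in endothelial or vascular nuclei (19.7 CPM), 23.1 times the neuronal level of 0.854. That is at least 11.4-fold more than in astrocytes, with 0 UMIs. In the unfiltered fit on control mice both were called higher, Ndufa4l2 at 4.94 (adjusted p = 1.11e-08) and Cox4i2 at 3.22 (adjusted p = 1.04e-05). By nuclei, 25 of 727 endothelial or vascular nuclei had a Cox4i2 UMI (3.44%, exact 95% interval 2.24 to 5.03), against 19 of 7103 neurons (0.267%, 0.161 to 0.417) despite the greater depth of neurons, and 30 of 727 had an Ndufa4l2 UMI (4.13%, 2.80 to 5.84), against 4 of 7103. The 0 of 1224 astrocytes, with a median of 1214.5 UMIs, allows a share of up to 0.245% by the floor of 3 counts, which limits nuclei with a UMI and not nuclei that express the gene. Counts of nuclei are over all mice. Intervals and floors cover counting error only.

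The 49 endothelial or vascular nuclei with a UMI of either gene came from 21 mice and held a median of 2436 UMIs, against 1518 in the 678 without. This split was made after the values were seen and has no test. Pericyte markers summed to 12905 CPM in the 49 nuclei and 7392 in the others, with Vtn at 1002 against 237, Abcc9 at 1083 against 371 and Kcnj8 at 147 against 39.4. Endothelial markers summed to 15669 and 17655, so nuclei of both kinds carried markers of endothelium and of pericytes. Smooth muscle markers summed to 22.1 and 21.8, and meningeal markers to 243 and 132. All 86 members together stood at 5041 and 3561. These sums include Cox4i2 and Ndufa4l2, which defined the split, so part of the difference was set by it.

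Other isoform pairs differed by class in their own ways. Cox6b2, known from testis, had 29 UMIs (10.2 CPM) in meningeal or Schwann nuclei and 18 (6.16) in oligodendrocytes, against 13 (0.585) in neurons, and it was the 1 member called higher in oligodendrocytes in the unfiltered fit. Cox7b2 had 49 UMIs (28.3 CPM) in astrocytes, in 21 of 23 mice, against 214 (9.62) in neurons and 3.88 to 4.56 CPM in the other 3 classes. The ubiquitous Cox7b was nearly level between these classes, at 38.8 in astrocytes and 38.5 in neurons. The muscle-type isoforms were almost absent: Cox6a2 gave 2 UMIs in neurons and 1 in astrocytes and Cox8b 7 in neurons. Cox7a1 gave 9 UMIs in neurons (0.405 CPM), 3 in endothelial or vascular nuclei (2.28 CPM), 2 in oligodendrocytes and 1 each in astrocytes and in the meningeal or Schwann class. The 3 genes of the identical c-ring subunit were each counted in neurons, Atp5g1 with 62, Atp5g2 with 194 and Atp5g3 with 433 UMIs. Atp5g2 was at 16.1 CPM in oligodendrocytes against 8.72 in neurons, whereas Atp5g3 was at 12.7 against 19.5, and at 49.4 in endothelial or vascular nuclei.

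**Figure D5:**
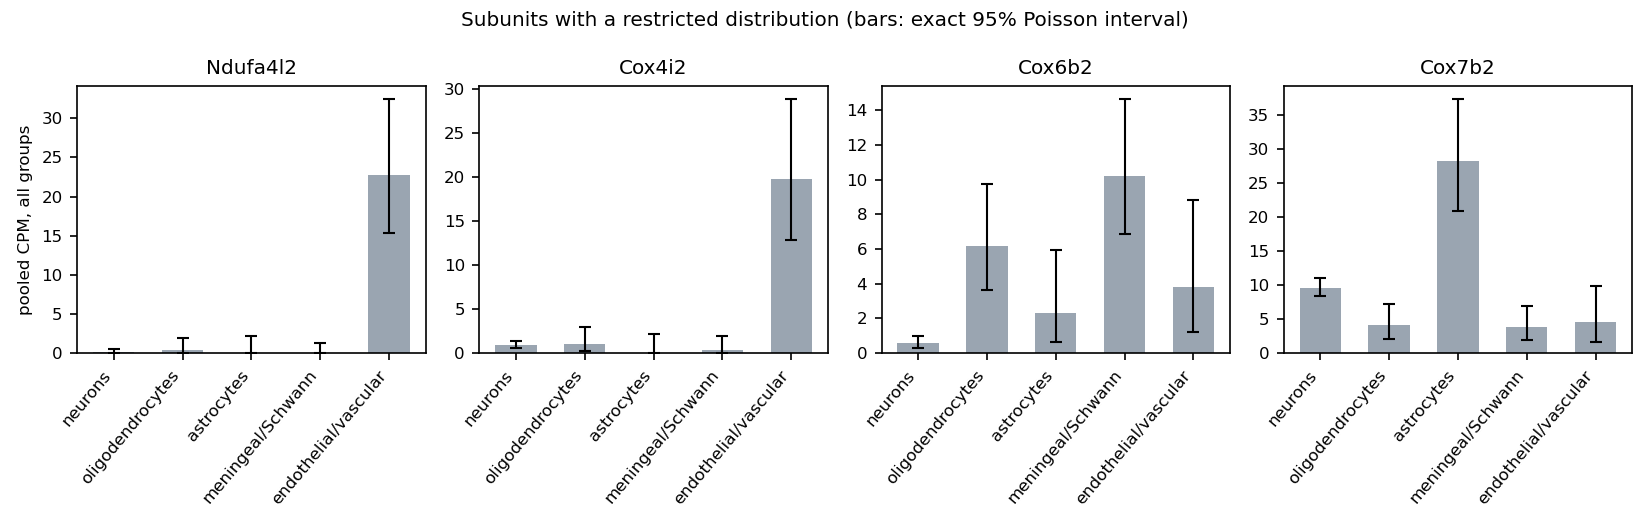
Pooled CPM of Ndufa4l2, Cox4i2, Cox6b2 and Cox7b2 in 5 classes over the 23 or 24 mice of all groups with at least 10 nuclei of the class; bars start at 0 and the lines are exact 95% Poisson intervals, which cover counting error only. Ndufa4l2 and Cox4i2 are highest in endothelial or vascular nuclei (22.8 and 19.7), Cox6b2 in meningeal or Schwann nuclei (10.2) and Cox7b2 in astrocytes (28.3).

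Among the lists beside the members, the 7 tested mitochondrially encoded subunits were called higher than in neurons in each of the 4 other classes, with median log2 fold changes of 2.55 in endothelial or vascular nuclei, 2.16 in meningeal or Schwann nuclei, 0.97 in astrocytes and 0.89 in oligodendrocytes. Ppargc1a, the coactivator of mitochondrial biogenesis, was higher in astrocytes (1.66, adjusted p = 6.48e-11) and lower in oligodendrocytes (-1.45) and endothelial or vascular nuclei (-1.50). Esrrg, an estrogen-related receptor that works with it, followed the same pattern, at 1.05, -1.77 and -1.84. Ppargc1b, of the same list, did not: it was lower in astrocytes as well (-2.34, adjusted p = 4.15e-08). Its values were -3.04 in oligodendrocytes, -1.69 in endothelial or vascular nuclei and -1.36 in meningeal or Schwann nuclei. Cs, citrate synthase, rose in astrocytes (1.42, adjusted p = 3.11e-09). Ttc19, a factor of complex III maturation, was lower than in neurons in all 4 classes, from -0.58 in astrocytes to -1.24 in meningeal or Schwann nuclei.

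Neuron families, the groups in which the authors named their populations, were read from the letters of their names as dorsal, mid and ventral (D, M, V) and excitatory and inhibitory (E, I), with VC and VM kept as codes. In control mice the ventral inhibitory family VI had the highest summed level, 2246 ± 313 CPM (n = 8), followed by VE with 2050 ± 549 (n = 8), MI with 1932 ± 329 (n = 9), ME with 1919 ± 507 (n = 7), VM with 1756 ± 180 (n = 5), DI with 1652 ± 209 (n = 9), VC with 1569 ± 357 (n = 9) and DE with 1558 ± 236 (n = 9). Neighbours in this order lay within each other's SD. VI was above DE, DI, VC and MI in 8 of 8 mice each, above VM in 5 of 5, above VE in 7 of 8 and above ME in 6 of 7. For complex III it was above ME in 2 of 7 only, at 0.808 times the mean. VI exceeded DE by 1.52 times for complex V, 1.60 for complex IV and 1.34 for complex I. Median UMIs per nucleus were 3142 in VI, 2188.5 in DE and 6192.5 in VE, and the part of depth was not tested.

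Only 5 members passed the filter in the family fit of 3072 genes. In dorsal against ventral families Ndufaf2 was called lower and none higher, where 14.1% of all tested genes were called lower and 15.6% higher. It had 45.1 ± 11.5 CPM in DE and 52.5 ± 20.6 in DI, against 114 ± 65.5 in VE, 87.2 ± 26.3 in VI, 72.0 ± 45.9 in VM and 29.7 ± 31.4 in VC, so VC, counted with the ventral families, lay with the dorsal ones. The log2 fold change was -0.51 (SE 0.19, adjusted p = 0.0313), and the call was lost without control mouse 6 (0.0848) and without control mouse 8 (0.103). Without control mouse 7 Ndufaf2 was not among the 4 members tested, and none was called. None of the 5 was called in excitatory against inhibitory families, where 8.79% of all tested genes were called, in VC (13.4%) or in VM (0.13%), by edgeR. DESeq2 called none in the first 2 of these and gave the 5 members no adjusted p in VM. At an unadjusted p under 0.05 there were Atp5a1 in excitatory against inhibitory families (-0.47, adjusted p = 0.115), with 19.9% of all genes, and Ndufaf2 in VC (-0.69, adjusted p = 0.136), with 24.1%. Beside these, Esrrg was lower in dorsal families (-1.48, adjusted p = 8.58e-24), as was Ttc19 (-0.57, adjusted p = 0.000216). All 6 tested mitochondrially encoded subunits were called higher in dorsal families, with a median of 0.66, where 15.6% of all tested genes were. Among them mt-Co1 had the smallest adjusted p (0.86, adjusted p = 0.000118). The 5 tested members all had estimates below 0 in this comparison, with a median of -0.25.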

How the data were processed

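Nuclei were profiled by Drop-seq and the authors deposited raw UMI counts per gene and barcode with a table of cell classes and populations. Genome builds mm10 and GRCm38 are from the submitters' processing notes, while for aligner, gene annotation, strand and intronic reads the sources used here say nothing. Each mouse was 1 replicate. Counts were summed per mouse and class (at least 10 nuclei) or neuron family (at least 5) and fitted in R 4.3.3 by edgeR 4.0.16 (TMM, filterByExpr, robust quasi-likelihood), in 1 fit over the 3 groups, or in control mice over classes or families with the mouse as a block, equal weight per family. Adjusted p-values are Benjamini-Hochberg over all genes tested, with a threshold of 0.05. Levels are CPM (UMIs per 1000000 UMIs). Doublets were not called again, and unlabelled and discarded barcodes entered no comparison. Spans are from GENCODE M21 on GRCm38, and the trend on span was a lowess curve over all tested genes. Promoter sequences are from RefSeq. Python 3.11.15, numpy 2.4.6, scipy 1.17.1, pandas 2.3.3, statsmodels 0.14.6 and matplotlib 3.10.9 were used.

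The members, the lists and the tests were chosen with earlier results of these data known. Named genes were the isoform groups, up to 8 called members per direction or the 3 with the smallest p, the 2 most counted members per complex in control neurons, the extremes of each neuron comparison and up to 4 called genes of each other list. Alternatives were DESeq2 1.42.0, edgeR with DESeq2's size factors, all genes without a filter on counts, a larger minimum of nuclei, only the compared groups, no cx control mice, summed formalin samples, nuclei thinned to 500 UMIs, the replicate number as a block and leaving out each mouse. The fits were tested on simulated counts: for rotarod against control in neurons, with 8893 genes, 17.8% of genes changed by 1.5-fold, 62.8% of those changed by 2-fold and 97.9% of those changed by 3-fold were recovered, with 3 false calls among 8758 unchanged genes. For endothelial or vascular nuclei against neurons (3416 genes) 78.3% were recovered at 2-fold. These shares are of the changed genes that passed the filter. The simulation used a fixed dispersion not estimated from these mice, no effect of the mouse, and equal means in all classes for unchanged genes. It therefore does not give the recovery or the false calls to be had in the real data.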

Additional observations from a re-analysis of the deposited data

Results flagged for a closer look

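The summed level of the 86 genes in endothelial or vascular nuclei of rotarod mouse 4 was 3991 CPM, against a median of 2820 over the 5 rotarod mice. It was the 1 value of 58 such groups of mice to lie apart from its group by the criterion for an extreme value (its gap to the next mouse was 0.733 of the group's range, against a limit of 0.71). Chance gives about 1 in 20 such groups.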

How the results depend on the processing

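Leaving out mice, the formalin against rotarod count of 2 called members in neurons ranged from 0 to 3, the class counts from 1 to 7 (astrocytes), 1 to 9 (endothelial or vascular), 2 to 7 (meningeal or Schwann) and 2 to 5 (oligodendrocytes), and the dorsal against ventral count from 0 to 1. The formalin against rotarod count was 1 without the filter on low counts and 0 with nuclei thinned to 500 UMIs, with formalin samples summed in pairs, with the replicate block (formalin 1 to 5 and rotarod 1 to 5) and with the same mice unblocked, an alternative added after seeing the data. The labels give no pairing by replicate number. Same-number correlations ran from -0.107 to 0.0462 over 9103 genes, and no sample correlated best with its own number. These values cannot show that same-numbered mice share no pairing or batch. The block gave 0 called members in oligodendrocytes and in the meningeal or Schwann class too. Without the filter the class counts were 2 (astrocytes, neither of them among the 3 called with it), 11 (oligodendrocytes), 17 (meningeal or Schwann) and 43 (endothelial or vascular), and with at least 20 nuclei 7, 7 and 8, where the number of members tested also changed. Without the cx control mice they were 2 for meningeal or Schwann and 1 for endothelial or vascular nuclei. Dorsal against ventral gave 0 without the filter, with at least 10 nuclei and without the cx mice. In thinned nuclei the ratio to control in neurons was 1.23 for complex I in formalin mice. In rotarod mice it was 0.953 for complex I, 0.722 for complex III, 0.834 for complex V and 0.884 for all members. Without thinning the same ratios were 1.08 in formalin mice and, in rotarod mice, 0.845, 0.829, 0.749 and 0.825. For single genes, Ndufb10, Atp5a1, Atp5b, Atp5f1, Cox8a, Ndufaf2 and Ndufv2 lost a call under some alternative, 33 such cases in all over the named genes, with no change of sign. Thinned nuclei left no member tested between classes or families. Depth limits the rest: Ndufb10, for one, was called on 36 UMIs over the 5 rotarod mice.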

Other observations

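Unlabelled barcodes, which entered no comparison, had high levels of the 86 genes: 7819 ± 3456 CPM in the 4 control mice with at least 10 of them, 8042 ± 2132 in 4 formalin mice and 4893 ± 2333 in 5 rotarod mice. Nuclei the authors discarded had 2293 ± 372, 2658 ± 791 and 2359 ± 524 in 9 control, 10 formalin and 5 rotarod mice, above the neuronal mean of each group. Oligodendrocyte precursors had 1808 ± 112 in 3 control mice, on 14 to 24 UMIs of the 86 genes per mouse. In 3 formalin mice they had 2374 ± 1628, on 7 to 51 UMIs. Microglia had 1952 and 2449 in 2 formalin mice, on 17 and 19 UMIs, and 2066 and 6848 in 2 rotarod mice, on 40 and 213. Most of these values thus rest on few counts. In neurons, the deviations of formalin samples numbered n and n + 5 from the group mean correlated at 0.0904 to 0.279 over the 5 such pairs. Other pairs of formalin samples are not given, so whether these are more alike than any other pair was not tested.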
